A study of Homo sapiens with 36 samples.

Results

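The comparison described here set HN6 cells given interleukin-8 (IL-8) against HN6 cells left untreated, 6 of the 36 RNA-seq libraries of the study. HN6 is an established cell line from a human squamous carcinoma of the head and neck. The 3 treated libraries came from cells given recombinant human IL-8 at 100 ng per ml for 24 h, and the 3 control libraries from cells with no treatment. Both groups shared the medium, whose serum had been depleted of exosomes, and poly-A selected RNA was sequenced. The members are all 15631 genes with enough reads to be tested in these 6 libraries, whatever their change. The comparison, its members and the gene lists below were chosen with earlier results of these data known. Counts by list are therefore descriptions. The other libraries came from the lines HN4 and Cal27 with the same treatment and from an experiment in which all 3 lines received a vector plasmid or a plasmid with ACLY, the ATP-citrate lyase. The stated purpose was to follow IL-8 in cells with unlike amounts of its receptor CXCR1. Nothing in the labels shows that replicates were grown as separate cultures; the p-values therefore rest on library-to-library spread that may be technical only. All values come from 1 line at 1 dose and 1 time.

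IL-8, encoded by CXCL8, is a chemokine that signals through the G protein-coupled receptors CXCR1 and CXCR2 and is best known for calling neutrophils. Carcinoma cells often secrete it, usually under control of NF-kB and AP-1. Among the programs that the lists below follow, the integrated stress response lowers general translation through phosphorylated eIF2 and raises ATF4, which switches on amino acid synthesis, uptake and tRNA charging. The unfolded protein response raises chaperones of the endoplasmic reticulum through ATF6, XBP1 and ATF4. Sterol synthesis follows SREBP2, and genes of mitosis are held down outside of late cell cycle by the DREAM complex.

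The 6 libraries held 17577250 to 18869913 counts, and the limit set by a count of 0 was 0.159 to 0.171 CPM (counts scaled to library depth, elsewhere also with TMM factors). Mitochondrial genes took 4.17 to 4.56% of the counts in untreated and 4.50 to 4.94% in IL-8 libraries. Genes read in HN4 alone (12 genes) or Cal27 alone (13 genes) stood in each of the 6 libraries at a median of at most 0.00244 of their own line's level. Untreated replicate 2 stood apart from the other controls in disagreement beyond sampling noise. Chi-square per degree of freedom was 8.818 between untreated replicates 1 and 2, 6.209 between 2 and 3 and 2.855 between 1 and 3. Over 7789 genes of at least 20 CPM, the difference of replicate 2 from the other untreated libraries had a Spearman rho of -0.695 with GC content and 0.429 with gene length. Replicate 1 had 0.733 and -0.307, and replicate 3 had 0.17 and -0.327, so these trends do not single out replicate 2. The difference between IL-8 and untreated libraries had 0.233 and -0.199, and 0.0967 and -0.111 without untreated replicate 2. These rhos are across genes, which are not independent replicates. The HN6 vector libraries of the second experiment were a second set of controls: edgeR called 1 of 15417 genes between them and the untreated libraries (515 at an unadjusted p under 0.05), and DESeq2 called 6.

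Markers of the labelled tissue were read throughout. Of 19 tested squamous epithelial markers 4 rose (21.1%) and 5 fell (26.3%), beside 18.7% and 19.9% of all tested genes. Their summed level was 5474 to 5635 CPM in untreated and 5282 to 5291 CPM in IL-8 libraries. Fibroblast markers summed to 22.5 to 24.7 CPM in untreated and 34.3 to 38 CPM in IL-8 libraries; 6 of 12 were tested, COL1A1, LUM and PDGFRB rose, and COL1A2, COL3A1 and PDGFRA had no read. Leukocyte markers summed to 16.2 to 17.5 and 12.8 to 15.4 CPM, with CD14 higher and ITGAM and CSF1R lower among 4 tested of 13. DESeq2 called neither CD14 nor ITGAM (adjusted p = 0.0671 and 0.123), and edgeR did not call CSF1R without IL-8 replicate 3 (adjusted p = 0.0812). Endothelial markers summed to 8.71 to 10.7 and 11.1 to 12.1 CPM, with PECAM1 higher of 2 tested. The part of such cells in any result was not tested, and in bulk RNA fewer cells of a kind and less RNA per cell cannot be told apart.

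A large share of the HN6 transcriptome differed between IL-8 and untreated libraries, mostly by less than 2-fold. edgeR's quasi-likelihood test called 6019 of 15631 tested genes at a Benjamini-Hochberg adjusted p under 0.05 (38.5%), of which 2916 were higher with IL-8 (18.7%) and 3103 lower (19.9%). The median log2 change of all tested genes was 0.01. The shares of 18.7% higher and 19.9% lower are the measure for each HN6 count by list or gene family below. At 2-fold or more the balance turned: 412 genes rose that far (2.64%) and 84 fell (0.537%). Of these 496 genes (3.17%) 52 belonged to one of the 55 gene lists used here, and 444 belonged to none. The 3 libraries of one group all lay above the 3 of the other for 7698 genes (49.2%). With upper-quartile scaling the calls were 3496 higher and 2447 lower, so 58.8% of the called genes were higher against 48.4%, while the median log2 change of all genes was 0.05. In a fit of all 18 libraries of the IL-8 experiment, which share 1 estimate of the spread, 2846 genes were called.

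**Figure D1:**
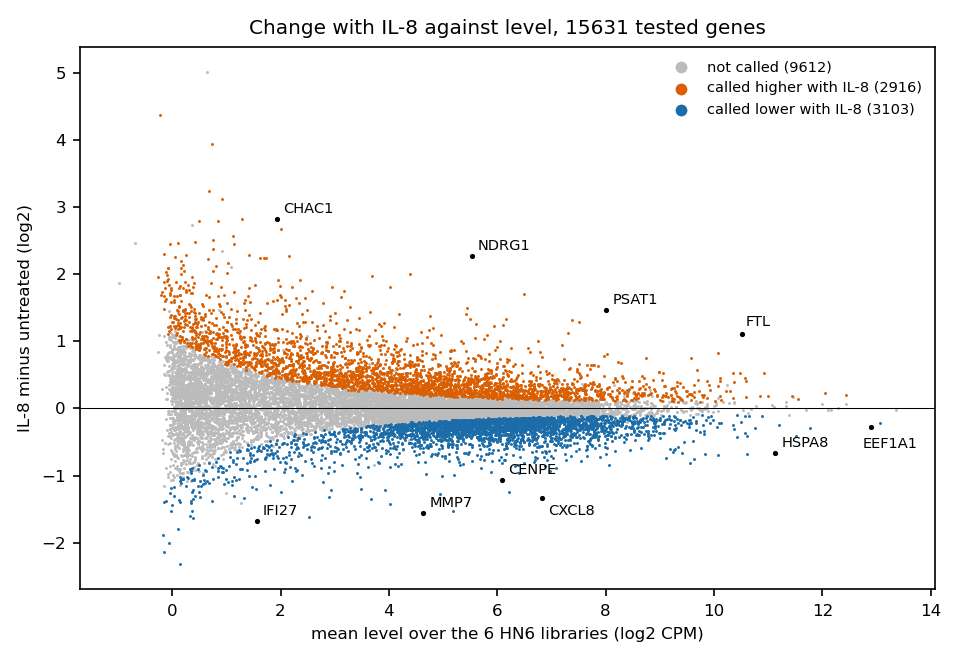
Log2 change from untreated to IL-8 in HN6 against mean level (log2 CPM), 1 point per tested gene; colours mark the 2916 genes called higher, the 3103 called lower and those not called. The changes of 2-fold or more lie mostly above zero and at low levels, and the called falls lie mostly at high levels and within 2-fold.

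The direction of the calls followed the level and the length of the genes. Among 2297 genes of 100 CPM or more 41.0% fell and 19.5% rose. Among 3057 genes of 1 to 5 CPM 5.00% fell and 19% rose. With the tested genes cut into 4 classes of equal size by exon length, the share that fell went from 8.93% in the shortest class to 18.1, 23.9 and 28.5% in the longer ones, while the share that rose went from 20.1 to 16.6%. With an offset for GC content and length, 2888 genes were higher and 3963 lower. Without untreated replicate 2, 6382 genes were called.

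**Figure D2:**
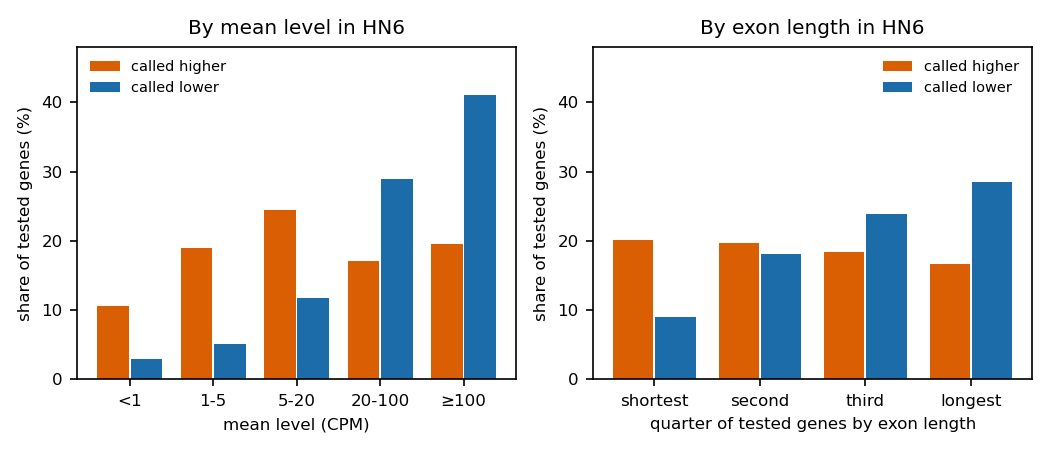
Percent of tested genes called higher and called lower with IL-8, by mean level in CPM and by class of exon length (4 classes of equal size). Falls grow from 2.88% below 1 CPM to 41.0% at 100 CPM or more and from 8.93 to 28.5% over the classes of length, and rises vary less.

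The receptors of IL-8 were at the limit of detection, and the message of the ligand fell. CXCR1 (chromosome 2, 218162845 to 218166995, hg38, minus strand) had 0 reads over the 3 untreated libraries and 1 over the 3 IL-8 libraries. CXCR2 (chromosome 2, 218125289 to 218137253) stood at 0.0544, 0.0547 and 0 CPM untreated and at 0.053, 0.367 and 0.282 CPM with IL-8, which is 2 reads against 13 (edgeR log2 change 2.46, SE 0.97, adjusted p = 0.0508). The CXCR2 libraries of the groups overlap, and over the alternatives its edgeR adjusted p ran from 0.0238 without IL-8 replicate 1 to 0.234 without IL-8 replicate 2. CXCL8 (chromosome 4, 73740506 to 73743716) was at 162, 188 and 187 CPM untreated and at 72.3, 69.7 and 70.2 CPM with IL-8. All 3 treated libraries lay below all controls, and the fitted change was -1.34 on the log2 scale (SE 0.058, edgeR adjusted p = 5.29e-13), 0.395 of the untreated level. ACLY (chromosome 17, 41866908 to 41930542, minus strand), the gene of the second experiment, was at 274, 268 and 266 CPM untreated and at 217, 222 and 219 CPM with IL-8, a fall to 0.813 of the untreated level with no overlap (edgeR adjusted p = 8.25e-06).

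CXCL1, CXCL2 and CXCL6 fell with CXCL8, and most other chemokines were not called. Of 13 tested genes of the chemokine and receptor list 4 fell (30.8%, beside 19.9% of all tested genes) and 1 rose, with a median log2 change of -0.11. CXCL1, a neutrophil attractant that acts on CXCR2, was at 189, 180 and 181 CPM untreated and 101, 96.1 and 101 CPM with IL-8 (log2 change -0.88, edgeR adjusted p = 1.22e-11). CXCL2 fell from 21.2 ± 0.585 to 11.6 ± 1.43 CPM and CXCL6 from 9.23 ± 0.789 to 5.96 ± 0.5 CPM (SD, n = 3 here and below). CX3CL1, a membrane-bound chemokine, was higher, at 1.03 ± 0.619 and 1.99 ± 0.503 CPM (edgeR adjusted p = 0.0338). It was not called by DESeq2 (adjusted p = 0.0545), nor by edgeR without untreated replicate 2 or 3 or IL-8 replicate 1 or 3 (adjusted p of 0.0802 to 0.144). CXCL3, CXCL10, CXCL16, CCL5, CCL20 and CCL28 were not called, with log2 changes from -0.22 to 0.22.

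Cytokines and NF-kB genes went both ways. TNF was at 22.6, 22.1 and 22.8 CPM untreated and 9.86, 8.77 and 10.3 CPM with IL-8. This was a fall to 0.429 of the untreated level (edgeR adjusted p = 2.37e-09). The growth factor CSF2 fell from 12.8 ± 1.61 to 7.63 ± 0.825 CPM, and IL6 from 5.93 ± 0.939 to 4.02 ± 1.1 CPM, where the groups overlap. IL1A, an epithelial alarmin, rose from 38.8 ± 3.48 to 66.9 ± 2.69 CPM, and IL20RB, a subunit of the receptors for IL-20 and IL-24, from 20 ± 0.767 to 38.4 ± 0.981 CPM. Of 28 tested cytokines and receptors 9 rose (32.1%) and 7 fell (25.0%), beside 18.7% and 19.9% of all tested genes. Of 19 NF-kB factors and inhibitors 5 fell (26.3%) and 2 rose (10.5%). BIRC3, an inhibitor of apoptosis, fell from 60.2 ± 6.63 to 34.9 ± 2.06 CPM. NFKB1, TNFAIP3 and NFKBIA, which NF-kB itself induces, had log2 changes of -0.49, -0.35 and -0.28. With the GC and length offset 12 of the 19 were called lower.

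Interferon-stimulated genes had 10 rises and 5 falls among 34 tested, with a median log2 change of 0.13. IFI27, an interferon-induced mitochondrial protein, was the largest fall among called protein-coding genes of a mean log2 CPM of at least 1 whose groups do not overlap (the naming rule), from 3.92, 3.88 and 5.01 CPM to 1.33, 1.47 and 1.18 CPM (log2 change -1.68, SE 0.21, edgeR adjusted p = 2.01e-06). GBP2 rose from 14.3 ± 0.335 to 25.1 ± 2.32 CPM and the ubiquitin-like ISG15 from 16.5 ± 1.61 to 25.9 ± 0.972 CPM. Of 17 genes of MHC class I presentation 5 rose (29.4%) and 4 fell (23.5%), beside 18.7% and 19.9% of all tested genes.

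Under the same rule the 3 largest rises of protein-coding genes were of genes known to respond to amino acid shortage. ASNS (chromosome 7, 97852118 to 97872542, minus strand), which makes asparagine, was at 0.871, 0.656 and 0.455 CPM untreated and at 3.98, 5.56 and 4.63 CPM with IL-8. Every treated library lay above every control, as the rule requires, and the fold was 7.06 (log2 2.82, SE 0.25, edgeR adjusted p = 2.06e-08). CHAC1 (chromosome 15, 40952962 to 40956519), which degrades glutathione, went from 1.09, 1.04 and 1.37 CPM to 7.8, 8.29 and 8.57 CPM (7.04-fold, edgeR adjusted p = 8.38e-11). ALDH1L2 (chromosome 12, 105019784 to 105084577, minus strand), a mitochondrial enzyme of folate metabolism, went from 1.25, 1.42 and 1.31 CPM to 8.06, 8.19 and 9.19 CPM (6.36-fold, edgeR adjusted p = 9.58e-11). The 3 controls were low in each of these genes. Those of ASNS lay below 1 CPM and spread from 0.455 to 0.871 CPM, so few reads stand behind its fold.

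Among regulators and outputs of the integrated stress response 13 of 22 tested genes rose (59.1%) and 3 fell (13.6%), beside 18.7% and 19.9% of all tested genes. The median log2 change was 0.36 against 0.01 over all genes. ADM2, a peptide hormone related to adrenomedullin, had the highest log2 change of the list (3.24, edgeR adjusted p = 1.17e-06) at a level below that of the naming rule, 0.599, 0.109 and 0.171 CPM untreated and 2.65, 3.46 and 2.43 CPM with IL-8, on 16 and 159 reads. ATF4, the factor at its centre, was at 359, 349 and 358 CPM untreated and 436, 432 and 431 CPM with IL-8 (1.22-fold, edgeR adjusted p = 6.4e-06). DDIT4, an inhibitor of mTORC1, was at 54.5, 42.5 and 52.3 CPM untreated and 172, 159 and 154 CPM with IL-8 (3.25-fold, edgeR adjusted p = 1.94e-10). TRIB3, a pseudokinase induced by ATF4, rose from 69.2 ± 3.67 to 129 ± 1.59 CPM, SESN2 from 25.6 ± 1.04 to 46.5 ± 1.96 CPM, and DDIT3, which encodes CHOP, from 10.3 ± 1.31 to 13.7 ± 1.82 CPM. ATF5, an ATF4 relative induced by it in other settings, went the other way, from 42.4, 42 and 47 CPM to 21.3, 23.3 and 20.8 CPM, a fall in all 3 libraries (log2 change -1.01, edgeR adjusted p = 1.59e-09). PPP1R15A, which returns eIF2 to its active form, fell from 88.8 ± 5.4 to 75.1 ± 2.8 CPM. Of the eIF2 kinases EIF2AK2 fell (log2 change -0.24), and EIF2AK1, EIF2AK3 and EIF2AK4 were not called, at 0.05, 0.08 and -0.11.

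Enzymes that make amino acids and one-carbon units had 14 rises (58.3%) and 3 falls (12.5%) among 24 tested, with a median log2 change of 0.40. The shares of all tested genes were 18.7% and 19.9%. PSAT1, of serine synthesis, had one of the smallest p-values of all genes: 161, 153 and 152 CPM untreated and 427, 418 and 439 CPM with IL-8 (2.76-fold, edgeR adjusted p = 1.57e-15). PHGDH, the first enzyme of the same path, was at 122, 108 and 118 CPM and at 278, 279 and 290 CPM (2.44-fold). SHMT2, which passes the serine carbon to folate in mitochondria, rose from 176 ± 11.9 to 276 ± 12.1 CPM. CTH, of cysteine synthesis, rose from 6.24 ± 0.96 to 24.5 ± 0.339 CPM, the proline enzyme PYCR1 from 1.79 ± 0.215 to 6.38 ± 0.179 CPM, and the alanine transaminase GPT2 from 45.1 ± 1.76 to 113 ± 3.91 CPM.

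Transporters of amino acids had 11 rises and 5 falls among 21 tested, with a median of 0.21. SLC7A11, the cystine importer, was at 30.9, 36.2 and 26.5 CPM untreated and 71, 75.4 and 78.6 CPM with IL-8 (2.4-fold, edgeR adjusted p = 6.82e-09). SLC7A5, the main carrier of large neutral amino acids, rose 1.33-fold, from 808 ± 35.4 to 1074 ± 12.2 CPM. SLC1A3, a glutamate and aspartate carrier, fell from 110 ± 2.62 to 66.4 ± 0.805 CPM. Enzymes that charge cytosolic tRNAs had 12 rises and 2 falls among 20, with a median of 0.24. Of 17 mitochondrial tRNA synthetases 1 rose (5.88%) and 4 fell (23.5%), with a median of 0.00. The shares of all tested genes were 18.7% and 19.9%. AARS, the alanyl enzyme now named AARS1, was at 197, 181 and 196 CPM and at 324, 323 and 338 CPM (1.72-fold, edgeR adjusted p = 3.5e-11), the cysteinyl enzyme CARS rose 1.7-fold and the glycyl enzyme GARS 1.66-fold. FARSA, a subunit of the phenylalanyl enzyme, fell from 87.4 ± 3.43 to 72.7 ± 1.08 CPM.

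Promoters of 11105 of the 15631 tested genes were found in the RefSeq table (GRCh38.p14, 250 bases before to 50 after the start). The core of the amino acid response element, which ATF4 dimers bind, was searched as TGATGNAAN on both strands. It stood in 1.66% of the promoters of all tested genes, in 6 of 16 of the cytosolic tRNA synthetases (37.5%), in 3 of 16 of the amino acid and one-carbon enzymes (18.8%), in 4 of 18 of the amino acid transporters (22.2%) and in 2 of 20 of the stress response genes (10.0%). Matches did not all go with rises: of the 4 transporters SLC3A2 rose, SLC1A3 and SLC7A1 fell and SLC38A1 was not called, nor were GOT1 and ATF3 of the other lists. The stretches around the core in 3 genes that rose are shown 5′ to 3′ on the strand of the gene, with the match in capitals. ASNS lies at chr7:97872428-97872516 (minus strand), CHAC1 at chr15:40953221-40953309 (plus strand) and AARS1 at chr16:70289646-70289734 (minus strand). In CHAC1 and AARS1 the match reads on the other strand, as NTTNCATCA. A match describes letters in a window and is not a measured binding site.
ASNS: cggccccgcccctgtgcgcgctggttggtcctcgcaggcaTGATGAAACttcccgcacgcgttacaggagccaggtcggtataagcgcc
CHAC1: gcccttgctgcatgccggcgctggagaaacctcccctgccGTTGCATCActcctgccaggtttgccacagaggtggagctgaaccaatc
AARS1: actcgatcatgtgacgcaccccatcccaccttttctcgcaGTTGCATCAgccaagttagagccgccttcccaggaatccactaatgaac

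Folding factors of the endoplasmic reticulum rose as a group: 20 of 24 rose and none fell under edgeR (0 of 24 also without untreated replicate 2 and with the GC and length offset), with a median log2 change of 0.32. HSPA5, the chaperone BiP, was at 579, 593 and 589 CPM untreated and 992, 967 and 999.6 CPM with IL-8 (1.68-fold, edgeR adjusted p = 3.91e-12). HSP90B1, the reticular HSP90, was at 1055, 1138 and 1082 CPM and at 1555, 1571 and 1590 CPM (1.44-fold). XBP1, a factor of the unfolded protein response, was at 77.2, 83.2 and 85.3 CPM and at 152, 144 and 145 CPM (1.79-fold, edgeR adjusted p = 9.02e-11). No treated library of these 3 genes reached down to a control. HERPUD1, of reticular protein degradation, rose from 41.9 ± 0.459 to 70 ± 2.3 CPM and SDF2L1 from 37.6 ± 3.99 to 65.1 ± 6.89 CPM.

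The endoplasmic reticulum stress element joins a CCAAT box bound by NF-Y to a site for ATF6 or XBP1, and was searched on both strands as CCAAT and CCACG with any 9 bases between them. It stood in 0.126% of the promoters of all tested genes and in 7 of 23 of the folding factors (30.4%). The CCAAT box alone, which the longer element contains, stood in 36.7% and in 20 of 23 (87.0%). The stretches of 3 chaperone and regulator genes that rose are shown with the element in capitals: HSPA5 at chr9:125241351-125241449 (minus strand), XBP1 at chr22:28800570-28800661 (minus strand) and HSP90B1 at chr12:103930176-103930379 (plus strand), where the second of 2 matches reads on the other strand.
HSPA5: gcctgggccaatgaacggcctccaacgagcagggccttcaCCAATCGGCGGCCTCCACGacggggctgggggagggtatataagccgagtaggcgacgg
XBP1: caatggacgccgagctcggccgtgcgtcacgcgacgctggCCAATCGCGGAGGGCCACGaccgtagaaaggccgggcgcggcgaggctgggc
HSP90B1: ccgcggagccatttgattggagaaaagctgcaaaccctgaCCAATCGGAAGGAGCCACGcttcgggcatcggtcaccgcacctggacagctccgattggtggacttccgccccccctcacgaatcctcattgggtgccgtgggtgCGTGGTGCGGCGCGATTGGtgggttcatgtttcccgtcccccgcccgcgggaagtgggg

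Genes known to be induced by hypoxia rose with IL-8. Of 24 tested outside glycolysis 16 rose and 0 fell, with a median log2 change of 0.35, and with the GC and length offset 19 rose and 1 fell. NDRG1 (chromosome 8, 133237171 to 133302022, minus strand), a stress-induced differentiation gene, was at 22.5, 18.4 and 21.4 CPM untreated and at 101, 101 and 97.6 CPM with IL-8. The 3 treated libraries were alike and, as the naming rule requires, above all controls (4.81-fold, log2 2.27, SE 0.069, edgeR adjusted p = 1.57e-15). The lipase inhibitor ANGPTL4 rose from 4.34 ± 0.918 to 11.3 ± 1.54 CPM, the carbonic anhydrase CA9 from 10.2 ± 1.73 to 18.7 ± 0.398 CPM, and BNIP3, of mitophagy, from 45.6 ± 1.88 to 83.4 ± 3.43 CPM. VEGFA, the endothelial growth factor, rose 1.35-fold from 146 ± 5.17 CPM, and ADM, EGLN1, PFKFB3 and PLOD2 were not called, at log2 changes of -0.09, 0.13, 0.02 and 0.10. MIR210HG, the host transcript of a microRNA induced by hypoxia, rose most among noncoding genes under the naming rule, from 1.52, 1.26 and 0.911 CPM to 4.35, 5.46 and 3.44 CPM (3.57-fold, edgeR adjusted p = 2.72e-06). Glycolytic genes had 12 rises and 1 fall among 22 tested, with a median of 0.15: LDHA rose 1.33-fold and PGK1 1.34-fold, while HK2, PKM and ENO1 were not called, at -0.01, -0.03 and -0.02. The core bound by HIF, ACGTG on either strand, stood in 10 of 18 promoters of the hypoxia list (55.6%) and in 26.6% of all tested ones. This core lies within the E-box CACGTG, which 3 of the 18 held. It was not particular to the hypoxia list or to rises. ACGTG stood in 19 of 33 promoters of ribosome biogenesis and MYC (57.6%), where 32 of 39 tested genes fell. Among genes with a 2-fold rise it stood in 59 of 261 promoters (22.6%).

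Transcripts of sterol synthesis mostly fell while that of a sterol exporter rose. Of 26 genes of cholesterol synthesis and uptake 21 fell and 0 rose, also with the GC and length offset and without untreated replicate 2 (22 falls in each), with a median log2 change of -0.50. DHCR7, the last reductase of the path, was at 736, 695 and 703 CPM untreated and at 431, 418 and 432 CPM with IL-8 (0.6 of the untreated level, edgeR adjusted p = 1.22e-11). HMGCS1, which acts early in the path, was at 240, 254 and 243 CPM and at 167, 164 and 170 CPM. In neither gene did the groups overlap. SREBF2, the transcription factor that drives sterol synthesis genes, fell from 290 ± 1.75 to 219 ± 5.41 CPM.

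ABCA1, which exports cholesterol to lipoproteins and is a target of the oxysterol receptors LXR, was at 0.98, 1.31 and 1.08 CPM untreated and 5.46, 6.04 and 4.46 CPM with IL-8 (4.71-fold, edgeR adjusted p = 4.21e-08). CYP27A1, which makes an oxysterol, rose from 2.59 ± 0.679 to 5.77 ± 0.185 CPM. The LXR list had 5 rises (35.7%) and 2 falls (14.3%) among 14 tested, beside 18.7% and 19.9% of all tested genes. The LXR genes NR1H2 and NR1H3 had log2 changes of -0.18, a fall, and 0.11, not called. In fatty acid synthesis 10 of 21 tested genes fell and 1 rose, with a median of -0.14. SCD, the desaturase that makes oleate, was at 1009, 1064 and 1013 CPM untreated and 599, 615 and 611 CPM with IL-8 (0.591 of the untreated level, edgeR adjusted p = 4.77e-12), and FASN, the synthase, fell from 703 ± 46.3 to 625 ± 12.2 CPM. ACSS2, which makes acetyl-CoA from acetate, was the rise, and DESeq2 called 0 of the 21 higher. The sterol regulatory element TCACNCCAC, searched on both strands, stood in 1 of 19 promoters of the cholesterol list (5.26%) and in 1.03% of all tested ones.

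Genes of cell division fell almost throughout. Of 30 mitotic kinases, cyclins and checkpoint genes 29 fell and 0 rose, with a median log2 change of -0.51; PRC1 alone was not called. MKI67, the proliferation antigen, was at 977, 1084 and 941 CPM untreated and at 551, 586 and 571 CPM with IL-8 (0.569 of the untreated level, edgeR adjusted p = 5.79e-11). PLK1, a mitotic kinase, was at 175, 162 and 165 CPM and at 100.5, 99.8 and 100.5 CPM (0.6, edgeR adjusted p = 1.85e-10). CDK1, the kinase that drives entry into mitosis, fell from 248 ± 18.3 to 164 ± 7.23 CPM. Of 33 kinesins and kinetochore genes 30 fell and 0 rose, with a median of -0.54. HJURP, which loads the centromeric histone, was at 160, 160 and 155 CPM and at 86.7, 85.6 and 88.8 CPM (0.55, edgeR adjusted p = 1.87e-11), and the kinesin KIF23 at 296, 317 and 305 CPM and at 188, 182 and 188 CPM. For these genes too the groups did not overlap, and the spread of MKI67 among controls came mainly from untreated replicate 2. Without that library 29 of 30 mitotic and 29 of 33 kinetochore genes were called lower.

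Genes of S phase moved less than those of mitosis. Of 36 replication genes 21 fell and 0 rose, with a median of -0.16: RRM2, of deoxynucleotide supply, fell from 273 ± 5.6 to 181 ± 1.76 CPM, while CDC6, CDT1, MCM5, MCM6 and TK1 were not called, at log2 changes from -0.04 to 0.10. The difference between the lists was not tested. Of 23 genes of homologous recombination and the Fanconi path 17 fell and 0 rose, with BRCA2 at 34.7 ± 5.28 and 21.7 ± 1.56 CPM. G1 regulators had 12 falls (54.5%) and 4 rises (18.2%) among 22 tested, beside 19.9% and 18.7% of all tested genes. The CDK inhibitors CDKN1C, CDKN2A and CDKN2B rose, the last from 14.6 ± 0.328 to 22.1 ± 1.09 CPM, and CDKN1A, the p53 target p21, fell from 145 ± 13.3 to 124 ± 1.9 CPM. CDKN1C and CDKN2A were low, at 0.535 ± 0.141 and 1.44 ± 0.445 CPM and at 0.405 ± 0.0765 and 0.827 ± 0.166 CPM. CDKN2A was not called by DESeq2 (adjusted p = 0.147) or by edgeR with any 1 library left out (adjusted p of 0.0591 to 0.171). Of 24 p53 genes 3 rose (12.5%) and 7 fell (29.2%), beside 18.7% and 19.9% of all tested genes. In the BCL2 family BMF, a pro-apoptotic member that contains only the BH3 domain, was at 4.3, 3.94 and 3.25 CPM and at 13.2, 13.9 and 13.3 CPM (3.51-fold, edgeR adjusted p = 4.06e-10), while 11 of 16 members were not called.

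The cell cycle homology region TTTGAA, through which the DREAM and MuvB complexes bind promoters of mitotic genes, was searched on both strands. It stood in 9.73% of promoters of all tested genes, in 20 of 28 of the kinesin and kinetochore genes (71.4%), in 15 of 24 of the mitotic kinases and cyclins (62.5%) and in 1 of 30 of the replication genes (3.33%). The stretches of 3 genes that fell are shown with it in capitals: PLK1 at chr16:23678820-23678888 (plus strand), KIF23 at chr15:69414254-69414339 (plus strand) and HJURP at chr2:233854601-233854686 (minus strand). KIF23 and HJURP also hold a CCAAT box, read as ATTGG, a short way before the match.
PLK1: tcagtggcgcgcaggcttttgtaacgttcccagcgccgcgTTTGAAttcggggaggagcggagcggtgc
KIF23: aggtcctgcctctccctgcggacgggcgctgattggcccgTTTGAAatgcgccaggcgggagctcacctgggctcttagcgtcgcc
HJURP: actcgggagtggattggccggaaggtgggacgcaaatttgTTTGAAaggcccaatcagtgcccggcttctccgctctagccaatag

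**Figure D3:**
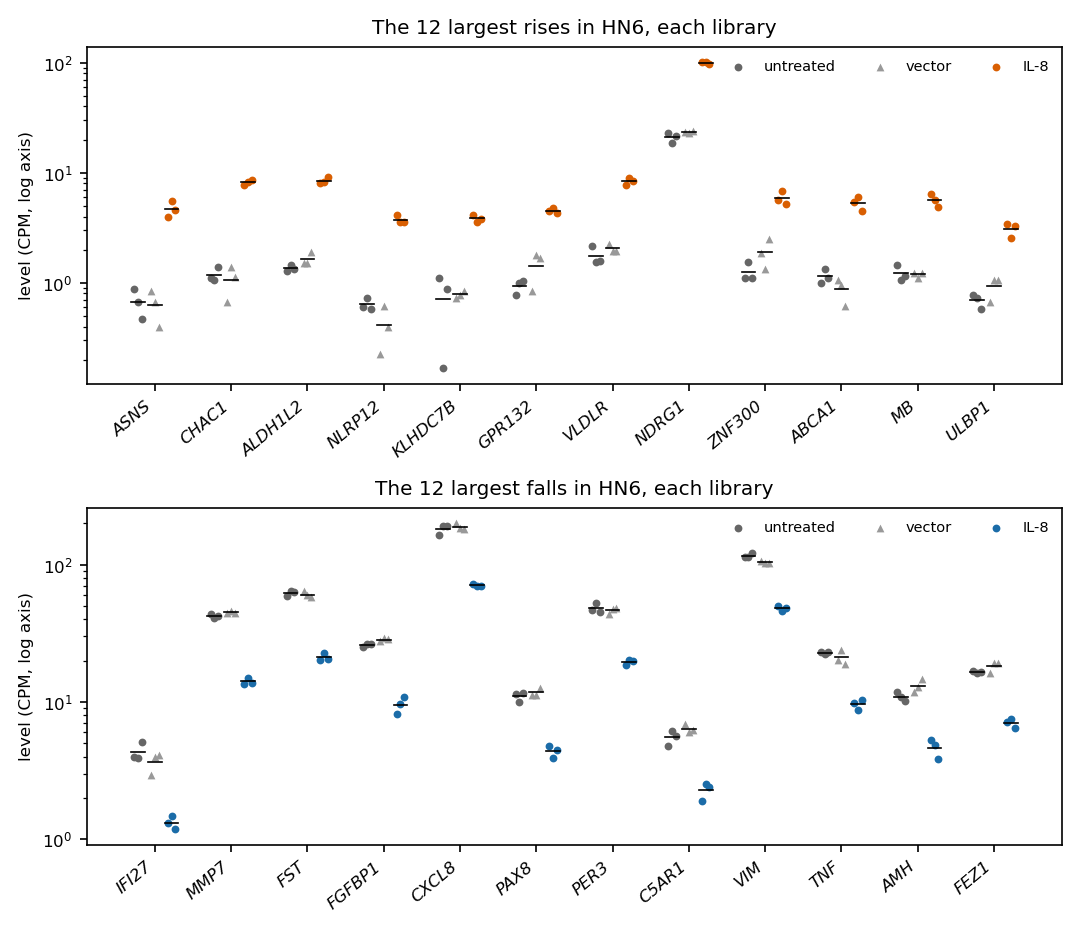
Level in CPM (log axis) in each HN6 library, untreated, vector and IL-8, for the 12 largest rises and 12 largest falls under the naming rule; points are libraries and bars group means. The vector libraries lie with the untreated ones, and the IL-8 libraries lie apart from all untreated libraries in each gene, as the rule requires.

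The other large rises were of varied function. NLRP12, a pattern recognition receptor of myeloid cells, was at 0.599, 0.711 and 0.569 CPM untreated and 4.14, 3.57 and 3.55 CPM with IL-8 (5.94-fold, edgeR adjusted p = 5.74e-08), and GPR132, a receptor for lysolipids, went from 0.924 ± 0.141 to 4.54 ± 0.273 CPM. KLHDC7B rose 5.45-fold, ZNF300, a zinc finger protein, 4.75-fold, MB, the oxygen-binding myoglobin, 4.71-fold, and ULBP1, a ligand of the NK receptor NKG2D, 4.5-fold. VLDLR, a lipoprotein receptor induced by ATF4 and hypoxia, was at 2.12, 1.53 and 1.54 CPM and at 7.74, 8.92 and 8.46 CPM (4.82-fold, edgeR adjusted p = 1.06e-09). Most of these started near 1 CPM, so that few reads stand behind the controls. The falls started higher. MMP7, a matrix metalloproteinase of epithelial cells, was at 43.2, 40.4 and 41.3 CPM untreated and at 13.6, 14.9 and 13.9 CPM with IL-8 (0.34 of the untreated level, edgeR adjusted p = 3.45e-12). FST, the activin antagonist follistatin, was at 57.9, 63.3 and 61.9 CPM and at 20.3, 22.6 and 20.5 CPM (0.346). FGFBP1, which frees fibroblast growth factors from matrix, fell to 0.372 of the untreated level, PAX8 to 0.403, the complement receptor C5AR1 to 0.42, AMH to 0.432 and FEZ1 to 0.435.

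In CPM the ferritin light chain had the largest rise of any called gene. FTL, the ferritin light chain, was at 1028, 989 and 976 CPM untreated and at 2096, 2147 and 2188 CPM with IL-8 (2.15-fold, edgeR adjusted p = 9e-15), and FTH1, the heavy chain, rose 1.44-fold from 1190 ± 38.3 CPM. Both chains store iron and belong to the NRF2 list, in which 15 of 26 genes rose and 5 fell, with a median of 0.26. The aldo-keto reductases AKR1C3 and AKR1C1 rose from 10.8 ± 0.537 to 25.1 ± 1.95 CPM and from 5.41 ± 0.486 to 11.5 ± 1.01 CPM, and share near-identical copies, so their split is uncertain. NQO1 rose 1.31-fold. NFE2L2, which encodes NRF2, fell from 223 ± 12.8 to 166 ± 9.17 CPM, and the glutathione enzyme GCLM fell (log2 change -0.17). HMGA1, a chromatin protein, rose 1.44-fold from 1609 ± 87 CPM. KRT81, a hair keratin with close copies, went from 812 ± 135 to 1432 ± 51.1 CPM. The mitochondrial mRNAs MT-ND4 and MT-CO3 rose 1.15-fold and 1.17-fold, and with the GC and length offset neither was called (edgeR adjusted p = 0.0594 and 0.0636), nor was MT-ND4 without untreated replicate 2 (0.122).

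Cytosolic chaperones fell while those of the endoplasmic reticulum rose. Of 28 members 19 fell and 1 rose, with a median of -0.23. HSPA8, the constitutive HSP70, was at 2744, 2921 and 2804 CPM untreated and at 1709, 1767 and 1870 CPM with IL-8 (0.631, edgeR adjusted p = 5.79e-11). HSP90AB1 fell from 3377 ± 84.7 to 2543 ± 26.6 CPM and HSP90AA1 from 3848 ± 234 to 3151 ± 43.2 CPM. HSPB1, a small heat shock protein, was the rise, from 357 ± 35.6 to 440 ± 8.71 CPM, and HSF1, the heat shock factor, was not called (log2 change -0.08). The translation factor EEF1A1 fell from 8433 ± 89.2 to 6967 ± 83.6 CPM, the largest fall in CPM of any called gene, and EGFR, the growth factor receptor, from 9171 ± 315 to 7922 ± 126 CPM.

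Transcripts of ribosome biogenesis mostly fell, and those of ribosomal proteins did not. Of 39 tested genes of ribosome biogenesis and the MYC network 32 fell and 1 rose, with a median of -0.28. Nucleolin, NCL, was at 1677, 1770 and 1747 CPM untreated and at 1348, 1326 and 1347 CPM with IL-8 (0.774, edgeR adjusted p = 9.69e-08), and the RNA polymerase I subunit POLR1B had a log2 change of -0.56. MYC fell from 275 ± 5.12 to 235 ± 4.96 CPM, and MNT, which opposes MYC, was the rise. The E-box CACGTG, which MYC and other factors bind, stood in 13 of 33 of these promoters (39.4%) and in 9.91% of all tested ones. Of 44 cytosolic ribosomal proteins 23 rose and 0 fell, with a median of 0.13, but 18 rose and 2 fell with the GC and length offset and 1 rose in the fit of 18 libraries. For RPS2 untreated replicate 2 was the low control, at 1109 CPM against 1434 and 1384 CPM. The nuclear genes of the respiratory chain had 15 rises and 1 fall among 39, 13 and 4 with the offset, and 0 of either in the fit of 18 libraries. Of 30 splicing factors 17 fell (56.7%) and 0 rose, and of 31 proteasome subunits 10 rose (32.3%) and 2 fell (6.45%). The shares of all tested genes were 18.7% higher and 19.9% lower.

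The circadian clock list had 9 falls and 3 rises among 15 tested, with a median of -0.36. The repressors of the loop fell: PER3 was at 46.3, 51.4 and 44.3 CPM untreated and at 18.6, 20.1 and 20 CPM with IL-8 (0.413, edgeR adjusted p = 5.79e-11), PER2 fell from 23.7 ± 1.84 to 13.1 ± 1.03 CPM, and PER1, CRY1 and CRY2 fell as well. ARNTL, which encodes the activator BMAL1, was at 14, 12.1 and 14.9 CPM and at 28.3, 27.3 and 26.6 CPM (2-fold, edgeR adjusted p = 2.27e-08), and its partner CLOCK was not called (log2 change -0.18). NR1D2, which represses ARNTL, fell from 84.7 ± 9.16 to 49.6 ± 1.31 CPM, and RORA, which activates it, rose from 0.776 ± 0.0727 to 1.39 ± 0.247 CPM. DESeq2 did not call RORA (adjusted p = 0.109), nor did edgeR in 5 of the 6 fits with 1 library left out (adjusted p of 0.059 to 0.116). The hour of harvest of the groups was not given in the sources used here.

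Further transcription factors followed the naming rule. NFATC4 rose from 2.27 ± 0.271 to 6.23 ± 0.666 CPM, the AP-1 relative JDP2 from 16.5 ± 2.12 to 42.6 ± 2.38 CPM, the stem cell factor SALL4 from 2.34 ± 0.246 to 5.32 ± 0.0799 CPM, and CREB3L1, which is activated by proteolysis at the Golgi, from 6.97 ± 0.126 to 15.7 ± 2.64 CPM. PRDM9, a histone methyltransferase of meiosis, went from 1.01 ± 0.243 to 2.26 ± 0.513 CPM. Falls were PBX3 (9.48 ± 1.07 to 4.86 ± 0.124 CPM), FOS (6.02 ± 0.403 to 3.15 ± 0.482 CPM), FOXA2 (7.6 ± 0.4 to 4.2 ± 1.15 CPM) and MYBL1 (52.6 ± 6.88 to 29.2 ± 1.36 CPM). FOS belongs to the list of ERK feedback and immediate early genes, where 9 of 26 rose (34.6%) and 7 fell (26.9%). The shares of all tested genes were 18.7% and 19.9%. Among abundant long noncoding RNAs NEAT1, the scaffold of paraspeckles, rose 1.5-fold from 131 ± 2.94 CPM, and H19, an imprinted RNA, from 0.405 ± 0.19 to 1.49 ± 0.246 CPM. Against the vector libraries neither was called (edgeR adjusted p = 0.576 and 0.485). MANCR was the largest fall of a noncoding gene under the naming rule, from 8.93, 9.51 and 8.88 CPM to 3.02, 3.41 and 2.43 CPM (0.326, edgeR adjusted p = 2.06e-08).

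Mesenchymal and matrix genes had calls in both directions. VIM, the intermediate filament of mesenchymal cells, was at 112, 112 and 119 CPM untreated and at 50.2, 46 and 48.7 CPM with IL-8 (0.423, edgeR adjusted p = 9.01e-13). Its antisense RNA VIM-AS1 fell to 0.407, and reads of the pair cannot be told apart without strand. FN1, fibronectin, was at 1970, 2046 and 1897 CPM and at 1198, 1220 and 1264 CPM (0.623, edgeR adjusted p = 2.83e-11). SNAI1, a repressor of E-cadherin, rose from 4.7 ± 0.293 to 8.35 ± 0.453 CPM, and CDH1, E-cadherin itself, rose as well (log2 change 0.26). The list of factors and markers of epithelial-mesenchymal transition had 3 rises and 3 falls among 17 tested (17.6% each). These shares lie near the 18.7% and 19.9% of all tested genes. THBS1 fell from 1368 ± 58.8 to 849 ± 4.9 CPM, and the hemidesmosomal collagen COL17A1 from 307 ± 8.24 to 207 ± 2.59 CPM, while 10 of 22 collagens and matrix glycoproteins rose, among them COL1A1 from 13 ± 0.893 to 21.3 ± 0.606 CPM. Of 25 metalloproteinases and inhibitors 11 rose (44.0%) and 6 fell (24.0%). MMP2, a gelatinase, rose from 45.2 ± 4.33 to 64.5 ± 3.27 CPM.

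Genes of squamous differentiation had 12 rises and 2 falls among 22 tested of 34, with the highest median of the lists of at least 10 tested genes, 0.51. The 12 that were not tested had too few reads, so the median speaks of the others. Several members named below were low, and all tested genes of 1 to 5 CPM had a median of 0.17. The part of level in this ranking was not tested. MAL, a lipid raft protein of differentiated epithelium, was at 16.8, 20.4 and 17.7 CPM untreated and at 44.8, 40.8 and 41 CPM with IL-8 (2.31-fold, edgeR adjusted p = 3.2e-10), the calcium binder CALML5 rose from 2.17 ± 0.0672 to 5.76 ± 0.54 CPM, the kallikrein KLK10 from 8.6 ± 0.89 to 19.3 ± 0.716 CPM, and involucrin, IVL, from 2.4 ± 0.305 to 3.95 ± 0.577 CPM. SPRR1B, a cornified envelope precursor with close copies, and the filament binder FLG were the falls, to 0.456 and 0.477 of the untreated level, both below 3 CPM.

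**Figure D4:**
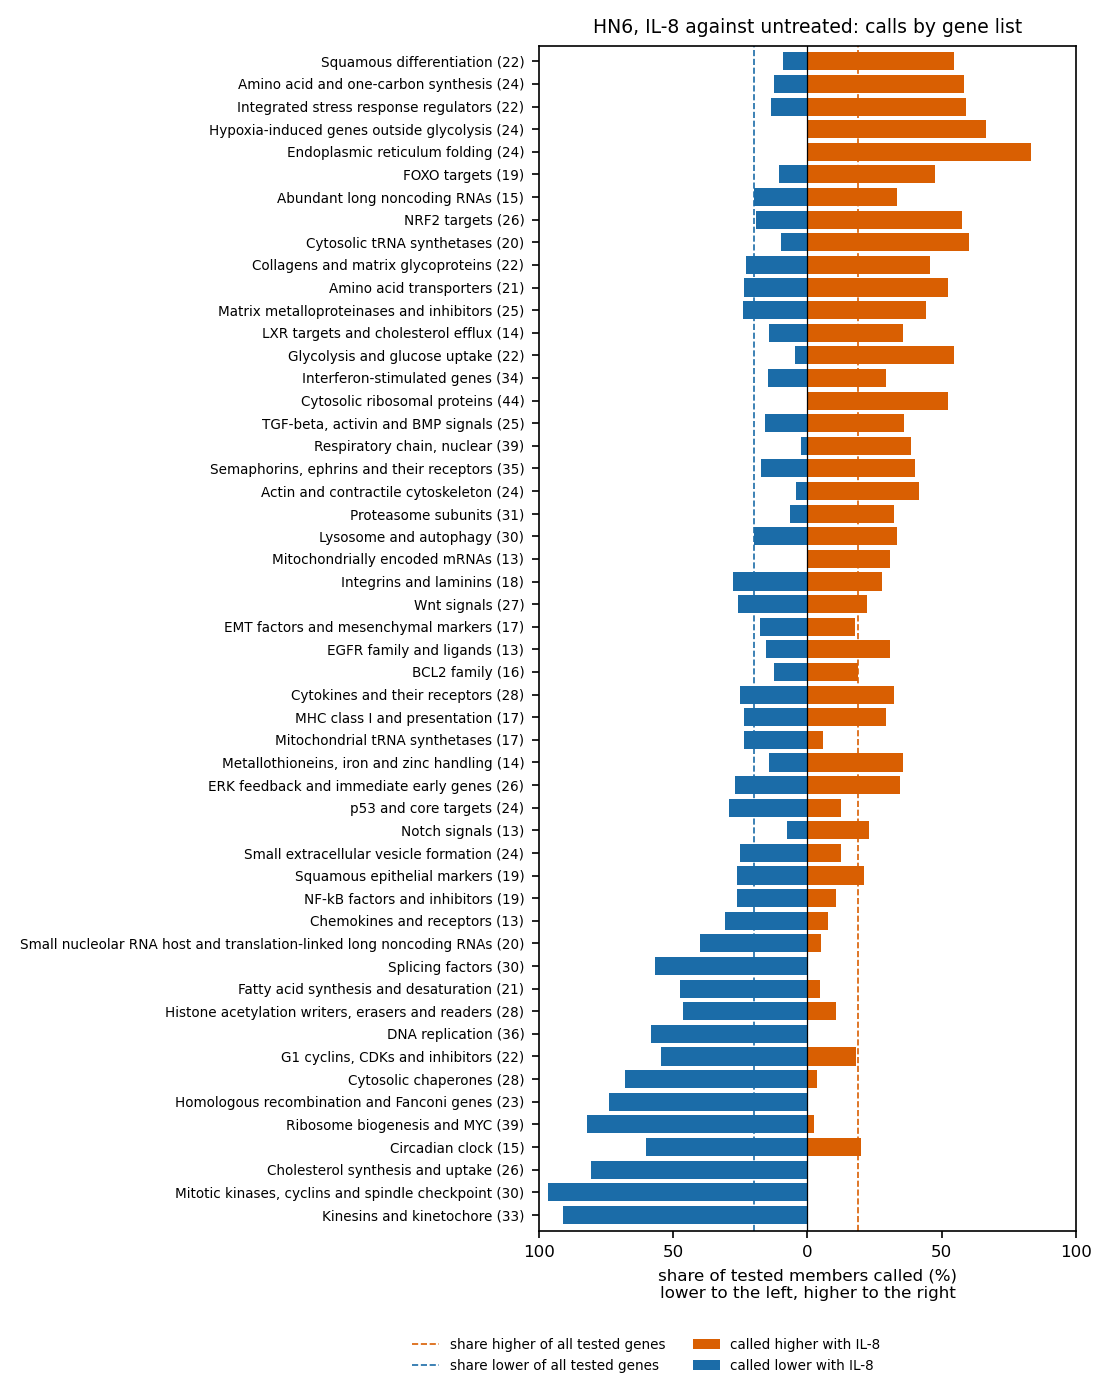
Percent of tested members called higher (right) and lower (left) with IL-8 in HN6 for each list with at least 10 tested genes, ordered by median log2 change; dashed lines mark the shares of all tested genes, 18.7% and 19.9%. Squamous differentiation, amino acid synthesis, the stress response, hypoxia and reticular folding stand at one end, and kinesins, mitotic genes and cholesterol synthesis at the other.

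The lists of other signals had mixed calls, beside 18.7% higher and 19.9% lower of all tested genes. TGF-beta, activin and BMP genes had 9 rises and 4 falls among 25, Wnt genes 6 and 7 among 27, Notch genes 3 and 1 among 13, and genes of the EGFR family and its ligands 4 and 2 among 13. Semaphorins, ephrins and their receptors had 14 rises and 6 falls among 35, and 11 and 10 with the GC and length offset. Actin and contractile genes had 10 rises and 1 fall among 24. FOXO targets had 9 rises and 2 falls among 19, with BCL6 at 4.21 ± 0.7 and 7.43 ± 0.83 CPM. Of 30 lysosome and autophagy genes 10 rose and 6 fell, with the autophagy kinase ULK1 at 29.3 ± 1.29 and 57.4 ± 1.66 CPM. Histone acetylation genes had 13 falls and 3 rises among 28, and genes of small extracellular vesicle formation 6 falls and 3 rises among 24, led by SMPD3, a sphingomyelinase, at 1.79 ± 0.442 and 0.941 ± 0.279 CPM. Without untreated replicate 2 or IL-8 replicate 1 or 2 SMPD3 was not called (edgeR adjusted p of 0.0658 to 0.0962).

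The response of HN6 differed from that of HN4, the line with the same design. A test of the difference between the 2 responses over 12 libraries called 7570 of 17192 genes (44%). Of 3006 genes called in both lines by separate fits, 2424 went opposite ways (80.6%). These fits share no library. Of all 14298 genes tested in both lines, 3332 rose in HN4 and 2854 fell there. In HN4 the mitotic genes had 29 rises and 0 falls, cholesterol synthesis 19 and 1, ribosome biogenesis 30 and 2 and cytosolic chaperones 25 and 1, while the stress response had 4 rises and 15 falls and hypoxia 1 and 21. The difference test called 29 of the 30 mitotic genes lower in the HN6 response, 24 of 26 cholesterol genes lower, and 21 hypoxia genes and 17 stress response genes higher. Of 15618 genes tested in HN6 and in the difference test, that test called 3391 higher in the HN6 response and 3920 lower. MKI67 had a log2 change of -0.81 in HN6 and 0.71 in HN4, NDRG1 2.27 and -1.47, and CHAC1 2.81 and -1.75. Of 12 folding factors of the endoplasmic reticulum called in both lines 10 went the same way. In HN4 12 of 24 rose and 2 fell, the difference test called 13 higher and 2 lower in the HN6 response, and HSPA5 had log2 changes of 0.75 and 0.57. CXCL8 fell in both lines, by -1.34 and -1.14.

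These differences need the state of the HN4 libraries beside them. HN4 with IL-8 differed from the HN4 libraries labelled vector in 311 of 15297 genes by edgeR, while the HN4 libraries labelled vector differed from untreated HN4 in 7728 of 15693. ACLY stood at 380.2 CPM of totals in untreated HN4, 1323 with IL-8, 1486 in the libraries labelled vector and 353.5 in those labelled ACLY plasmid, so ACLY goes against the label of the last pair. Whether the HN4 difference comes from IL-8 or from how those libraries were grouped was not tested. In HN6 the targeted gene followed its labels, at 265.7, 221.5, 259.3 and 2224 CPM of totals in the same order.

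**Figure D5:**
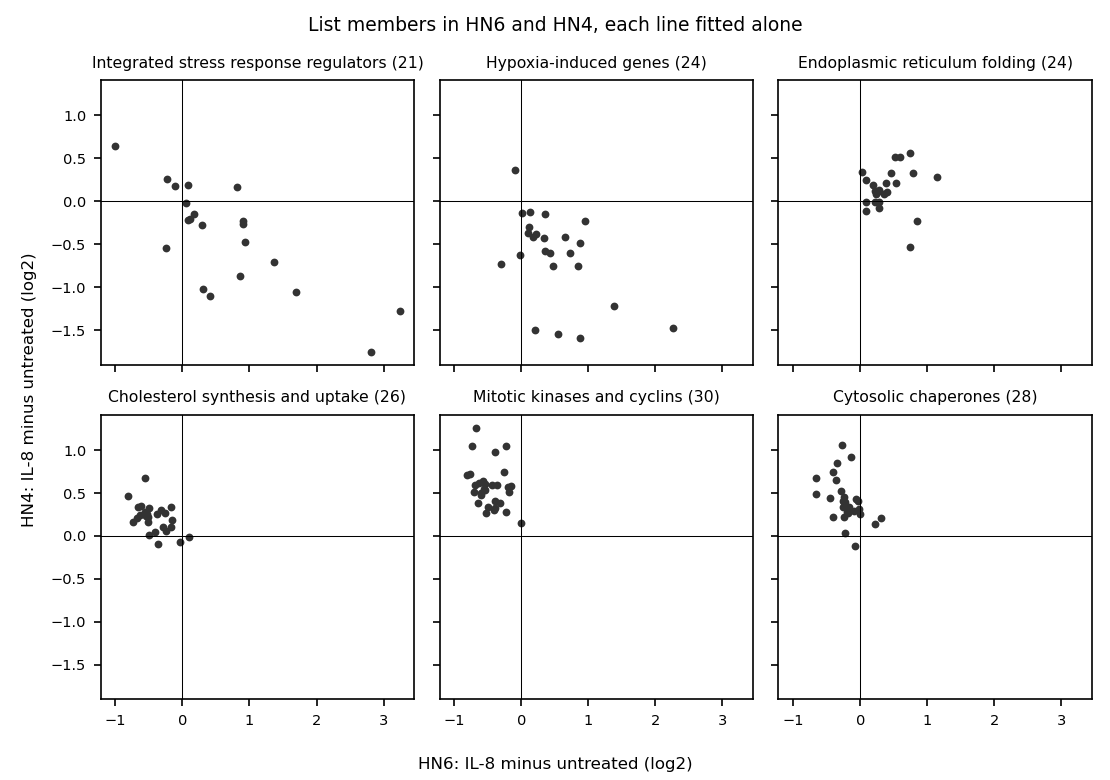
Log2 change with IL-8 in HN6 (x) against HN4 (y), each line fitted alone, for members of 6 lists. Mitotic, cholesterol, stress response and hypoxia genes lie in the quadrants of opposite sign, and reticular folding factors lie mainly where both changes are above zero.

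Against Cal27 the test of the difference called 4253 of 17743 genes (24%), and 7420 without Cal27 IL-8 replicate 3. Of 956 genes called in both lines 559 went opposite ways (58.5%). CHAC1 had a log2 change of -1.36 in Cal27 and NDRG1 of -0.88. Genes otherwise read in HN4 alone stood in the 3 Cal27 IL-8 libraries at 0.268 to 0.311 of their HN4 level, against at most 0.00049 in untreated Cal27, so the Cal27 libraries with IL-8 do not match their label in full, and the part of this in the difference was not tested.

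Across the other HN6 groups the same genes varied as follows, as a description with no test. CHAC1 had a mean of 1.18 CPM untreated, 8.21 with IL-8, 1.06 with vector and 8.06 with the ACLY plasmid. NDRG1 stood at 21.1, 99.6, 23.4 and 404 CPM, ABCA1 at 1.14, 5.31, 0.876 and 7.14 CPM, and PLK1 at 170, 100, 152 and 64.3 CPM in the same order. CXCL8 stood at 182, 70.6, 189 and 454 CPM and SCD at 1045, 608, 1027 and 1768 CPM, high with the plasmid and low with IL-8. In each of these 6 genes the vector mean lay near the untreated mean. Other genes of amino acid supply did not all go with CHAC1 in the plasmid libraries. In the same order AARS stood at 194, 328, 198 and 171 CPM and SLC7A11 at 31.7, 74.9, 30.3 and 20 CPM. ALDH1L2 stood at 1.35, 8.47, 1.64 and 5.65 CPM and CTH at 6.34, 24.5, 6.09 and 12.3 CPM. With the vector libraries as controls in place of the untreated ones, 5954 genes were called, 2934 higher and 3020 lower, and 80.6% of the calls against untreated libraries were among them.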

How the data were processed

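Gene counts of 6 HN6 libraries, 3 untreated and 3 with IL-8, were compared. The submitters' processing notes list build hg38, DESeq2, featureCounts 1.5.0-p3, HISAT2 2.0.5 and CASAVA without their roles. Annotation, strand setting and the treatment of reads with several matches are not given in the sources used here. Antisense pairs, overlapping genes and genes with near-identical copies are therefore uncertain. The authors deposited raw counts, whole numbers for 58735 genes with no normalization. GENCODE 29 has the same start and end for each identifier, and its names replaced those of the table, in which 27 symbols had become dates.

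Groups and replicate numbers came from the labels. The 6 libraries alone were fitted in edgeR 4.0.16 under R 4.3.3 with limma 3.58.1. Steps were a low-count filter (filterByExpr, minimum count 10, minimum total 15), TMM factors, a robust quasi-likelihood fit on 4 residual degrees of freedom, a two-sided test and Benjamini-Hochberg adjustment over all 15631 genes at 0.05. The 4 genes CXCR1, CXCR2, CXCL8 and ACLY were kept whatever their counts. Differences between lines were interaction terms over 12 libraries on 8 residual degrees of freedom. Levels are CPM with TMM factors; a limit for a count of 0 is 3 counts of the library total and reflects counting error alone, because reads lacked molecular identifiers. The scripts were tested on simulated data.

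Named were those 4 genes, the 12 largest rises and falls among called protein-coding genes of mean log2 CPM of at least 1 whose groups do not overlap, the 6 largest in CPM, up to 4 called members of each of 55 lists, 5 noncoding genes and 6 transcription factors each way. Other list members named were chosen after their values were seen. Some members of the cholesterol list are not reported here by name. The comparison, its members and the lists were chosen with earlier results of these data known. Promoter windows and their sequences are RefSeq's (GRCh38.p14). No pair of replicates agreed within sampling noise (chi-square per degree of freedom 2.23 to 8.82), so none were merged. Alternatives were DESeq2 1.42.0, upper-quartile or library-size scaling, no filter, a mean of at least 5 CPM, each replicate left out, the replicate number as a block, protein-coding genes alone and all 18 libraries of the IL-8 experiment; added after seeing the data were an offset for GC content and length and the vector libraries as controls.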

Additional observations from a re-analysis of the deposited data

Results flagged for a closer look

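The difference between the IL-8 responses of HN6 and HN4 passed the edgeR interaction test for 7570 genes, and that between HN6 and Cal27 for 4253. Given as HN6 minus HN4 on the log2 scale, the genes named for their size of change in HN6, or whatever their change, whose response was higher in HN6 were CHAC1 at 4.55, MB at 4.30, ASNS at 3.95, CXCR2 at 3.75, NDRG1 at 3.73, ULBP1 at 3.18, ZNF300 at 3.02, ALDH1L2 at 2.84 and ABCA1 at 2.63. Those with a lower response in HN6 were IFI27 at -2.77, FST at -2.28, ACLY at -2.15, FGFBP1 at -1.96, PAX8 at -0.99, FEZ1 at -0.86, TNF at -0.41 and CXCL8 at -0.21. CXCR2 rests on 2 and 13 reads in HN6. Of the genes named whatever their change, HN6 minus Cal27 was 3.45 for CXCR2, -2.59 for ACLY and -1.12 for CXCL8. The state of the HN4 libraries labelled vector and of the Cal27 libraries with IL-8, given with the comparison of lines, stands beside all of these values, and its part in them was not tested.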

How the results depend on the processing

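The count of called genes in HN6 stayed within 1.5 times of 6019 under every alternative run except the fit of all 18 libraries of the IL-8 experiment, which called 2846, of which 2757 were called the same way from the 6 libraries. With libraries left out it ran from 4779 to 6382, and the count at 2-fold or more from 488 to 574. That count was 109 among genes of a mean of at least 5 CPM, against 496, since fewer low genes were tested. DESeq2 called 5118 genes and the offset for GC content and length 6851. The share of higher genes among those called was 56.8% with library-size scaling and 58.8% with upper-quartile scaling, against 48.4%; for HN6 minus HN4 it was 59.7 and 62.7% against 47.8%, and for HN6 minus Cal27 upper-quartile scaling gave 57.8% against 44.9%. With libraries left out HN6 minus HN4 gave 6916 to 7523 genes and HN6 minus Cal27 3165 to 7420, the last without Cal27 IL-8 replicate 3. With libraries left out the HN6 minus Cal27 difference (log2) ran from -0.19 to 0.074 for SCD, from -0.26 to 0.29 for PSMB1 and from -0.71 to 0.23 for PSMB3. Without Cal27 IL-8 replicate 3 it was -0.19, 0.29 and 0.23, and of the alternatives run for these genes it alone made the call; the cause was not tested. Of 247 named genes 52 lost their call in the fit of 18 libraries, 18 with the vector libraries as controls, 10 by DESeq2, 9 with the offset and 8 to 14 with 1 library left out.

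Replicate numbers did not pair the samples: deviations of libraries with the same number correlated at 0.135, -0.049 and -0.046 over 10977 genes. With the replicate block 6094 genes were called (505 at 2-fold or more), and 7358 and 3124 for the differences from HN4 and Cal27. At this depth genes below about 1 CPM are limited by their reads, and 3 libraries a group limit the smaller changes.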

Other observations

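Most genes that changed by 2-fold or more lay outside the lists, and those named here were chosen after their values were seen. STRA6, the receptor that takes up retinol, was at 26.4, 28.7 and 28.6 CPM untreated and at 69, 71.4 and 70.6 CPM with IL-8 (2.52-fold, edgeR adjusted p = 1.62e-12), and DHRS3, a retinal reductase, went from 39.6 ± 1.31 to 92.3 ± 1.13 CPM (SD, n = 3). PCK2, the mitochondrial enzyme that makes phosphoenolpyruvate, was at 24.8, 26.1 and 25.7 CPM and at 74.1, 69.2 and 72 CPM (2.81-fold, edgeR adjusted p = 4.49e-13). CLIC3, a chloride channel relative, rose 4-fold from 10.1 ± 1.46 CPM, PADI3, which converts arginine in hair and skin proteins to citrulline, 3.52-fold, the brain-type creatine kinase CKB 3.38-fold, and FBLIM1, an adaptor of focal adhesions, from 26.1 ± 2.65 to 69.1 ± 0.424 CPM. MCAM, an adhesion molecule, rose from 44.4 ± 2.09 to 105 ± 0.893 CPM, IGFBP3 from 15.9 ± 1.51 to 35.1 ± 1.76 CPM, and EEF1A2, a tissue-specific form of the elongation factor whose common form EEF1A1 fell, from 106 ± 4.35 to 232 ± 11.7 CPM. HIST1H1C, a linker histone, rose from 105 ± 11.4 to 263 ± 7.07 CPM. Among falls, EDN1, the vasoconstrictor endothelin, went from 15 ± 1.13 to 7.4 ± 1.21 CPM, EMP3 from 51.2 ± 1.87 to 25.6 ± 0.257 CPM, the protease inhibitor SERPINA1 from 117 ± 3.14 to 60.3 ± 2.37 CPM, the myosin kinase MYLK from 81.3 ± 1.49 to 42.4 ± 1.09 CPM and JADE2, a partner of histone acetylases, from 173 ± 8 to 90.7 ± 2.68 CPM.

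By kind of gene, 15.7% of 1848 tested long noncoding genes rose and 5.74% fell, against 19.8 and 22.9% of 12725 protein-coding genes. Falls also followed level, with 2.88% below 1 CPM against 19.9% of all tested genes. The part of level in the contrast between kinds of gene was not tested. Of 16 tested keratin genes 10 rose and 2 fell, and of 9 protocadherins 6 rose and 1 fell. On chromosome 19, 27.2% of 1034 tested genes rose and 12.5% fell, the largest share of rises of any nuclear chromosome in these data. The difference between IL-8 and untreated libraries also went with GC content over genes of at least 20 CPM. Its Spearman rho was 0.233, and 0.0967 without untreated replicate 2. The part of GC content in the shares by chromosome was not tested. The TGATGNAAN core stood in 9 of 261 promoters of genes with a 2-fold rise (3.45%), in 2 of 41 with a 2-fold fall (4.88%) and in 1.66% of those of all tested genes. TTTGAA stood in 29 (11.1%), 10 (24.4%) and 9.73%.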
